A study of Caenorhabditis elegans with 14 samples.

Results

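The *cpr* genes of *C. elegans* encode cathepsin B-like cysteine proteases, and the 6 genes described here, *cpr-1* to *cpr-6*, were taken by symbol from the 21982 genes of the count table. All 6 passed the filter on low counts, and 15685 genes did so in all. Whole animals were collected after 16 h of exposure from the L4 stage, and the labels give them as day 1 adults. There were 4 groups: 4 libraries of *skpo-1* mutants on *E. faecalis* OG1RF, a bacterium that infects the worm gut, 3 of *skpo-1* on *E. coli* OP50, the standard food, 3 of N2 on *E. faecalis*, and 4 of N2 on *E. coli*. N2 is the laboratory wild type, and the mutant is a single strain that carries one deletion allele, ok1640, of *skpo-1*, a gene for a heme peroxidase. The *E. faecalis* plates were made of brain heart infusion agar with gentamycin. The strains were maintained on *E. coli* on nematode growth agar, and the methods do not name the medium of the *E. coli* plates of the exposure itself, so a part of the medium in the response to the bacterium was not tested.

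Cathepsin B-like enzymes belong to the papain family of cysteine proteases. They are made as inactive precursors, become active in the acid of the endosome and lysosome or after secretion, and are held back by small protein inhibitors, the cystatins. The worm gut is the main digestive tissue and takes up and breaks down bacteria, and members of the *cpr* family were first studied as gut proteases. *cpr-1* is known as a gut-specific cysteine protease, and the product of *cpr-4* is known to be secreted. *cpr-3*, *cpr-4*, *cpr-5* and *cpr-6* were described together as genes with changing expression over development.

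The libraries held 15174830 to 36682565 counts. The targeted gene fitted the labels: *skpo-1* averaged 1.83 ± 0.297 CPM (counts relative to the size of the library, scaled by edgeR's TMM factors) in *skpo-1* mutants on *E. faecalis* and 145.7 ± 46.4 CPM in N2 on *E. faecalis*, and 2.49 ± 0.156 CPM in *skpo-1* mutants on *E. coli* and 297.3 ± 13.2 CPM in N2 on *E. coli* (SD, n = 4, 3, 3 and 4). A pair of libraries stood apart from their groups. The summed level of the body wall muscle markers *unc-54* and *myo-3* was 374.4 CPM in *skpo-1* on *E. faecalis* replicate 4, against 1187 to 1501 CPM in the other 3 libraries of its group, and 517.9 CPM in N2 on *E. coli* replicate 2, against 2689 to 2859 CPM in the other 3. Values without both are given where they change a call. The summed level of 10 yolk and oocyte genes was low in the same libraries (29350 and 31040 CPM), and it was as low in N2 on *E. faecalis* replicate 3, at 30800 CPM, against 106600 CPM in replicate 1 and 65320 CPM in replicate 2 of that group.

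In the WBcel235 annotation 5 of the 6 genes lie on chromosome V and *cpr-6* lies on chromosome X, and each has a single annotated protein-coding transcript. *cpr-1* (WBGene00000781) occupies positions 11975551 to 11976756 of the plus strand of V in 3 exons, and *cpr-4* (WBGene00000784) positions 6614674 to 6615851 of the plus strand in 2 exons. *cpr-2* (WBGene00000782) lies at 16532936 to 16534100, *cpr-3* (WBGene00000783) at 15296834 to 15298700 and *cpr-5* (WBGene00000785) at 1132598 to 1134036, all on the minus strand of V. *cpr-6* (WBGene00000786) lies at 6607207 to 6609045 on the plus strand of X and has 8 exons. *cpr-5* stands in a small cluster of the family, between W07B8.4 (1130112 to 1131930, minus strand) and *cpr-8* (1134602 to 1139182, plus strand), with 566 bp between *cpr-5* and *cpr-8*. Reads that paralogs share could be split among them by the counting, and no value here separates such reads.

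Together the 6 genes had about 2 times the level on *E. faecalis* that they had on *E. coli* in both genotypes, and the make-up of that pool differed. Their summed level was 4726 ± 594.6 CPM in *skpo-1* on *E. faecalis* and 2391 ± 240.9 CPM in *skpo-1* on *E. coli*. It was 4752 ± 776.1 CPM in N2 on *E. faecalis* and 2298 ± 334.1 CPM in N2 on *E. coli* (SD, n = 4, 3, 3 and 4). The lowest library on *E. faecalis* had 3861 CPM and the highest on *E. coli* 2781 CPM, so the bacteria were separated in every library and the genotypes were not.

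Levels of different genes were compared per kilobase of exon. On *E. faecalis*, *cpr-4* was the most abundant in both genotypes, with mean levels of 2187 CPM per kb in *skpo-1* and 2105 CPM per kb in N2. *cpr-5* came next in *skpo-1* at 965.2 CPM per kb, while *cpr-1* (464.7 CPM per kb) and *cpr-6* (443.2 CPM per kb) overlapped between libraries. In N2 on *E. faecalis*, *cpr-1* (880.0 CPM per kb) and *cpr-5* (779.9 CPM per kb) overlapped, above *cpr-6* at 345.1 CPM per kb. On *E. coli* the order was another one: *cpr-6* led with 758.3 CPM per kb in *skpo-1* and 675.7 CPM per kb in N2, and *cpr-1*, *cpr-4* and *cpr-5* lay between 389.2 and 476.4 CPM per kb as means of either genotype, with overlapping libraries. *cpr-6* was above those 3 in every *skpo-1* library on *E. coli*, while in N2 on *E. coli* the ranges of *cpr-6* and *cpr-4* overlapped. *cpr-3* stayed between 10.5 and 31.6 CPM per kb in the 4 group means, and *cpr-2* was the lowest in all 4, at most 8.12 CPM per kb.

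**Figure D1:**
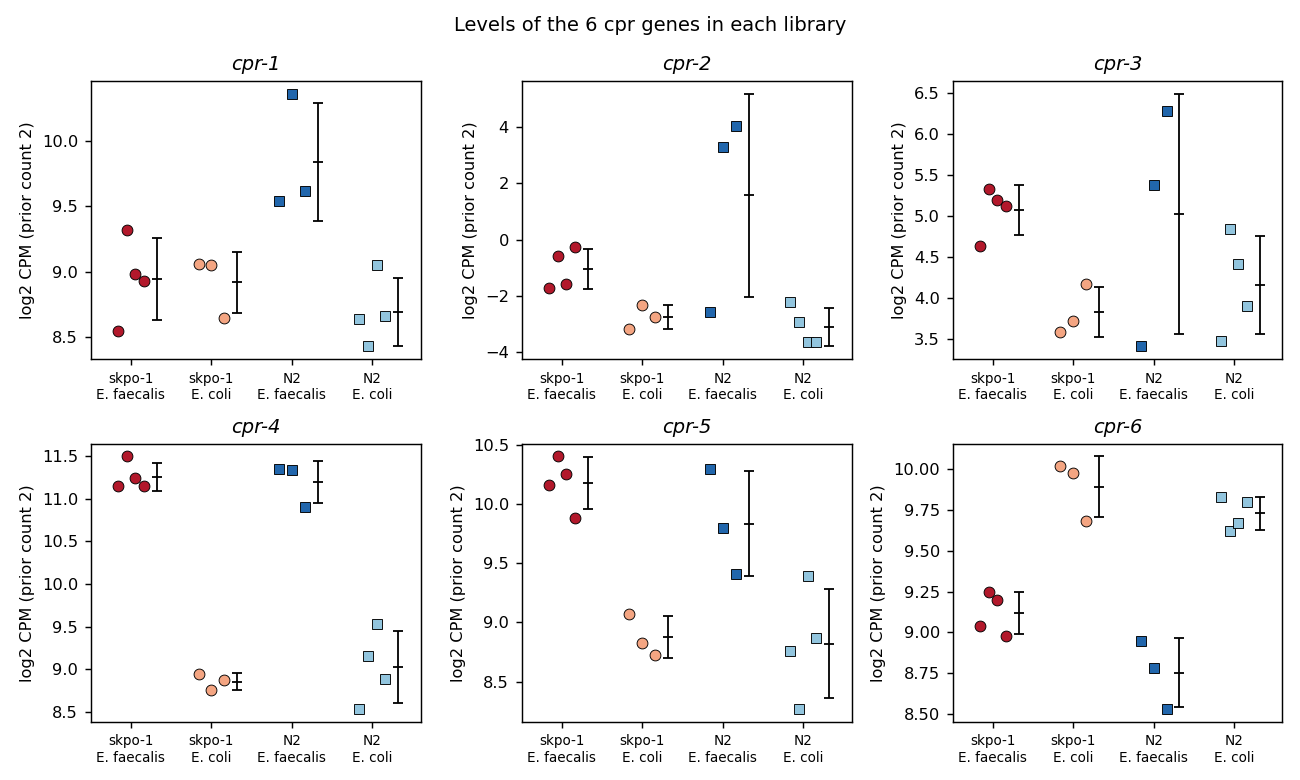
Level of each *cpr* gene in each library, on a log2 CPM axis with a prior count of 2 and an axis range of its own for each gene. Points are libraries, circles for *skpo-1* and squares for N2, and the bar beside each group is the mean ± SD. *cpr-4* and *cpr-5* lie higher and *cpr-6* lower on *E. faecalis* in both genotypes, *cpr-1* lies higher in N2 on *E. faecalis* than in the other 3 groups, and *cpr-2* is spread over the 3 libraries of N2 on *E. faecalis*.

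The response to *E. faecalis* was compared with *E. coli* within each genotype. Genes were called changed at an adjusted p under 0.05 with an absolute log2 fold change (log2FC) of at least 1, by the quasi-likelihood test of edgeR, with p-values adjusted over all tested genes (Benjamini-Hochberg). In *skpo-1*, 2 of the 6 genes were upregulated on *E. faecalis* (*cpr-4* and *cpr-5*) and none was downregulated, where 10% of all tested genes were called higher and 1.76% lower. In N2, 4 of the 6 were upregulated (*cpr-1*, *cpr-2*, *cpr-4* and *cpr-5*) and none was downregulated, where 19.2% of all tested genes were called higher and 4.1% lower. *cpr-2* had 0 to 3 counts in each library on *E. coli* and passed the filter only through libraries on *E. faecalis*. A lower call was thus not open to it, and its direction carries no weight beside those shares. The median log2FC of the 6 genes was 1.28 in *skpo-1* and 1.18 in N2, beside 0.12 and 0.03 over all tested genes in those comparisons.

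*cpr-4*, whose product is secreted, was upregulated in both genotypes. It had 2267, 2903, 2440 and 2267 CPM in *skpo-1* on *E. faecalis*, against 490.1, 429.1 and 466.6 CPM in *skpo-1* on *E. coli*. It had 2614, 2588 and 1928 CPM in N2 on *E. faecalis*, against 369.1, 569.0, 740.9 and 472.5 CPM in N2 on *E. coli*. The lowest library on *E. faecalis* was thus above the highest on *E. coli* in both genotypes, a pattern that 25.6% of all tested genes showed in *skpo-1* and 22.6% in N2. The log2FC was 2.42 ± 0.242 (SE) in *skpo-1*, a 5.35-fold increase (adjusted p = 2.11e-05), and 2.14 ± 0.224 in N2, a 4.42-fold increase (adjusted p = 2.42e-05, both by edgeR's quasi-likelihood test). The call held under each alternative setting run, with log2FC between 1.98 and 2.46.

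*cpr-5* was also upregulated in both genotypes. Its levels were 1141, 1350, 1217 and 943.9 CPM in *skpo-1* on *E. faecalis*, against 537.3, 453.6 and 424.7 CPM in *skpo-1* on *E. coli*. They were 1248, 889.6 and 681.3 CPM in N2 on *E. faecalis*, against 433.2, 308.9, 670.9 and 466.4 CPM in N2 on *E. coli*. The groups were apart in *skpo-1*, while in N2 replicate 3 on *E. faecalis* lay only just above replicate 3 on *E. coli*. The log2FC was 1.30 ± 0.263 in *skpo-1* (adjusted p = 0.00488) and 1.0 ± 0.252 in N2 (adjusted p = 0.00774, edgeR's quasi-likelihood test). The N2 value sat on the fold threshold: under 15 of 22 alternatives it fell short of it, down to 0.72, and its adjusted p stayed at or under 0.0457 in all 22.

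*cpr-6* went the other way. It had 527.9, 610.1, 589.9 and 505.6 CPM in *skpo-1* on *E. faecalis*, against 1036, 1009 and 821.1 CPM in *skpo-1* on *E. coli*. It had 495.2, 439.3 and 369.9 CPM in N2 on *E. faecalis*, against 907.0, 787.4, 817.0 and 894.2 CPM in N2 on *E. coli*. Every library on *E. faecalis* was below every library on *E. coli* of the same genotype, which 20.1% of all tested genes showed in *skpo-1* and 14.9% in N2. The log2FC was -0.77 ± 0.157 in *skpo-1* (adjusted p = 0.00502) and -0.97 ± 0.162 in N2 (adjusted p = 0.000933, edgeR's quasi-likelihood test), past the adjusted p threshold and short of the fold threshold. The N2 value sat near the fold threshold and passed it under 6 of the alternatives: with median-of-ratios scaling (-1.02), with DESeq2 (-1.02), without replicate 1 of N2 on *E. faecalis* (-1.10), without replicate 2 (-1.03) or replicate 3 (-1.0) of N2 on *E. coli*, and without both libraries that stood apart (-1.03).

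The opposite moves of *cpr-4* and *cpr-6* turned their ratio round. The ratio of *cpr-4* to *cpr-6* per kb is taken within a library and does not depend on how libraries are scaled. It was 4.62 to 5.31 in *skpo-1* on *E. faecalis* and 0.475 to 0.634 in *skpo-1* on *E. coli*. It was 5.82 to 6.57 in N2 on *E. faecalis* and 0.454 to 1.01 in N2 on *E. coli*. *cpr-4* made up 53.6% of the summed *cpr* level per kb in *skpo-1* on *E. faecalis* and 20.4% in *skpo-1* on *E. coli*, and 50.8% in N2 on *E. faecalis* and 24.3% in N2 on *E. coli*. The share of *cpr-6* was 10.9% in *skpo-1* on *E. faecalis* and 37.5% in *skpo-1* on *E. coli*, and 8.36% in N2 on *E. faecalis* and 35.3% in N2 on *E. coli*.

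**Figure D2:**
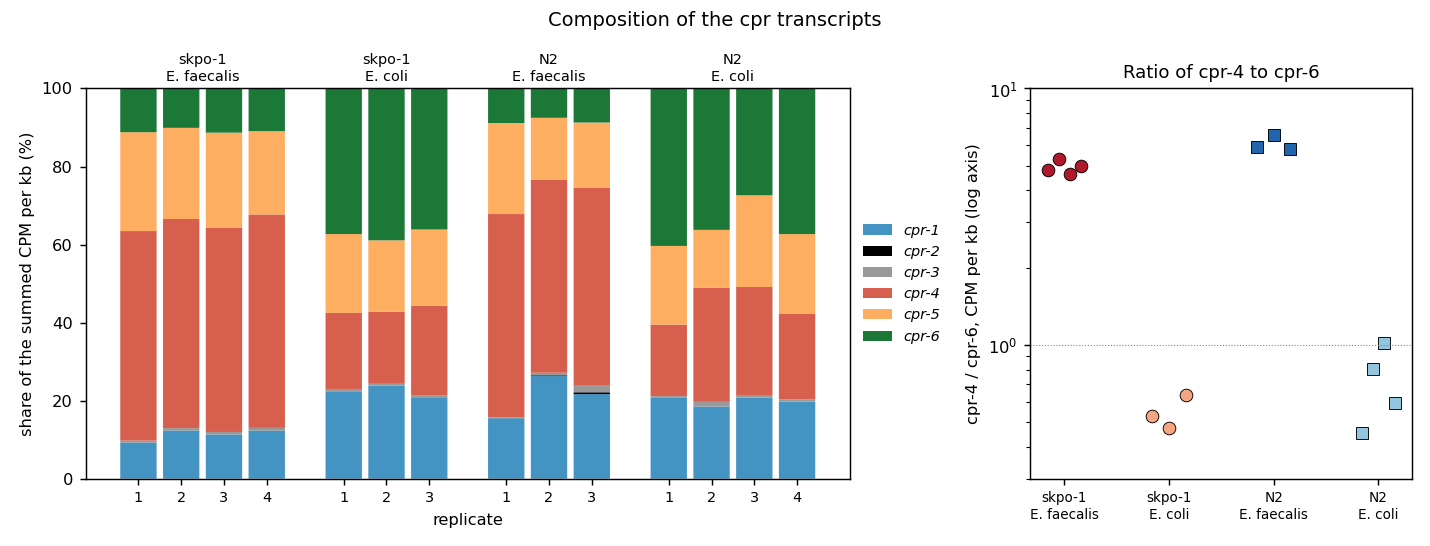
Left, share of each *cpr* gene in the summed level of the 6 genes (CPM per kb of exon, in percent), 1 bar per library with replicate numbers below. Right, ratio of *cpr-4* to *cpr-6* per kb in each library on a log axis, with a dotted line at a ratio of 1. All libraries on *E. faecalis* have ratios between 4.62 and 6.57, and those on *E. coli* lie between 0.454 and 1.01.

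*cpr-1*, the gut-specific member, was higher on *E. faecalis* in N2 and not detectably so in *skpo-1*. It had 373.7, 638.1, 504.6 and 487.3 CPM in *skpo-1* on *E. faecalis*, against 532.6, 528.9 and 402.0 CPM in *skpo-1* on *E. coli*, with overlapping libraries. It had 742.7, 1315 and 788.0 CPM in N2 on *E. faecalis*, against 398.0, 343.8, 531.0 and 405.2 CPM in N2 on *E. coli*, with no overlap. The log2FC was 0.04 ± 0.237 in *skpo-1* (95% interval -0.47 to 0.54, adjusted p = 0.92) and 1.18 ± 0.236 in N2 (adjusted p = 0.00239, edgeR's quasi-likelihood test). Replicate 2 carried part of the N2 value: without it the log2FC was 0.87 with an adjusted p of 0.0174, under the fold threshold.

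The direct test of that difference did not pass the threshold. The response of *cpr-1* in *skpo-1* minus that in N2 was -1.14 ± 0.333 on the log2 scale, with a 95% interval of -1.85 to -0.43, an unadjusted p of 0.00387 and an adjusted p of 0.44 (edgeR's quasi-likelihood test). Over the alternatives the difference stayed between -1.28 and -0.83, with adjusted p values between 0.112 and 0.839.

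*cpr-2* was nearly silent in most libraries. It had 5, 18, 4 and 19 counts in *skpo-1* on *E. faecalis*, against 1, 3 and 1 counts in *skpo-1* on *E. coli*, and 2, 315 and 599 counts in N2 on *E. faecalis*, against 2, 2, 0 and 0 counts in N2 on *E. coli*. In N2 on *E. faecalis* the level was 0.0883 CPM in replicate 1, 9.60 CPM in replicate 2 and 16.3 CPM in replicate 3, so replicate 1 lay within the range of N2 on *E. coli* and the groups overlapped. The N2 call (fitted log2FC 7.52 ± 1.23, adjusted p = 0.000808, edgeR's quasi-likelihood test) therefore rests on 2 of 3 libraries, and the fitted size depends on the prior count at such low values. In *skpo-1* all 4 libraries on *E. faecalis* were above the 3 on *E. coli*, which 25.6% of all tested genes showed. Because *cpr-2* passed the filter only through libraries on *E. faecalis*, that order carries no weight. The log2FC of 2.65 ± 1.37 in *skpo-1* did not pass the test (adjusted p = 0.169, edgeR's quasi-likelihood test).

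At a higher level, *cpr-3* had the same order of replicates as *cpr-2* in N2 on *E. faecalis*, and another order within each of the other groups. It had 24.9, 40.3, 36.7 and 34.7 CPM in *skpo-1* on *E. faecalis*, against 12.0, 13.1 and 17.9 CPM in *skpo-1* on *E. coli*. It had 10.6, 41.5 and 77.5 CPM in N2 on *E. faecalis*, against 11.1, 28.5, 21.2 and 14.8 CPM in N2 on *E. coli*. The *skpo-1* groups were apart and the N2 groups overlapped, again through replicate 1 on *E. faecalis*. Replicate 3 of N2 on *E. faecalis*, the highest for both *cpr-2* and *cpr-3*, was the lowest of its group in the summed yolk and oocyte genes, and replicate 1, the lowest for both, was the highest in that sum. The part of this in the result was not tested. The log2FC was 1.26 ± 0.48 in *skpo-1* (adjusted p = 0.0732) and 1.19 ± 0.459 in N2 (adjusted p = 0.0529, edgeR's quasi-likelihood test), so neither was called. Both calls depended on the fit. In *skpo-1* the adjusted p was 0.0393 with DESeq2, 0.00259 when only the compared groups were fitted, 0.0493 with the replicate number as a block, 0.0176 without replicate 1 of N2 on *E. faecalis* and 0.0471 without replicate 3. In N2 *cpr-3* was called under 4 of 22 alternatives, not all listed here. Its adjusted p in N2 was 0.0312 with DESeq2, 0.00259 without replicate 1 on *E. faecalis*, 0.451 without replicate 3, and 0.0275 without both libraries that stood apart.

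**Figure D3:**
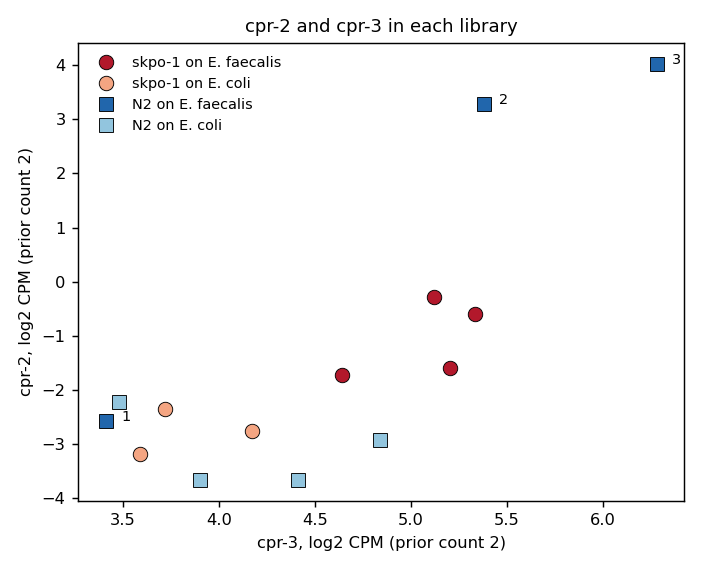
*cpr-2* against *cpr-3* in each of the 14 libraries, both in log2 CPM with a prior count of 2. Numbers mark the replicates of N2 on *E. faecalis*, of which replicate 1 lies among the libraries on *E. coli*, while replicates 2 and 3 have the highest levels of both genes.

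Over the 14 libraries, *cpr-4* and *cpr-5* went together (Pearson r = 0.91 of log2 CPM), and *cpr-4* and *cpr-6* ran opposite (r = -0.88). After group means were removed these values were 0.56 and 0.12, so the opposite course of *cpr-4* and *cpr-6* lay between groups and not between libraries of one group. *cpr-2* and *cpr-3* had r = 0.78 over all libraries and r = 0.79 within groups. The latter value rested largely on N2 on *E. faecalis*. There the SD of log2 CPM of *cpr-2* was 3.62, against 0.42 to 0.72 in the other groups. All these r values are descriptions over 14 libraries, whose points share group and scaling.

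The genotypes were compared on each bacterium. On *E. coli*, edgeR's quasi-likelihood test called 0 of the 6 genes, where 0.644% of all tested genes were called. None of the 6 was under an unadjusted p of 0.05, as 9.4% of all tested genes were, DESeq2 also called 0, and the adjusted p values ran between 0.783 and 0.995. For *cpr-4*, *cpr-5*, *cpr-6* and *cpr-1* the log2FC of *skpo-1* against N2 lay between -0.22 and 0.22, and its 95% interval stayed within -0.70 and 0.72. The intervals were wider for *cpr-3* (-1.41 to 0.59) and *cpr-2* (-3.38 to 4.72).

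On *E. faecalis* 0 of the 6 genes were called, where 0.108% of all tested genes were called, and 3 were under an unadjusted p of 0.05, as were 7.74% of all tested genes. DESeq2 also called 0. All 4 *skpo-1* libraries of *cpr-1* were below the 3 of N2, which 3.76% of tested genes showed, and its log2FC was -0.92 ± 0.235 (unadjusted p = 0.00141, adjusted p = 0.268, edgeR's quasi-likelihood test). Over the alternatives it stayed between -1.07 and -0.61, with adjusted p values between 0.0496 and 0.992, and *cpr-1* was not called under any. *cpr-2* had a log2FC of -4.21 ± 0.928 (adjusted p = 0.168) with overlapping libraries, and without replicate 1 of N2 on *E. faecalis* it was called, at -4.77 with an adjusted p of 0.000657. All *skpo-1* libraries of *cpr-6* were above those of N2, which 5.21% of tested genes showed, with a log2FC of 0.36 ± 0.16 (adjusted p = 0.639). *cpr-4* differed by 0.06 (95% interval -0.42 to 0.53) and *cpr-5* by 0.31 (-0.24 to 0.85).

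The response to *E. faecalis* was not shown to differ between the genotypes for any of the 6 genes. edgeR's quasi-likelihood test called 0 of them and 0% of all tested genes, with 1 of the 6 under an unadjusted p of 0.05 (*cpr-1*), as were 7.75% of all tested genes, and DESeq2 called 0 of the 6. For *cpr-4* the difference was 0.27 (95% interval -0.40 to 0.95), for *cpr-5* 0.30 (-0.47 to 1.07) and for *cpr-6* 0.19 (-0.28 to 0.67). The interval of *cpr-3* was wider at -1.33 to 1.47, and that of *cpr-2* ran from -9.88 to 0.13.

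**Figure D4:**
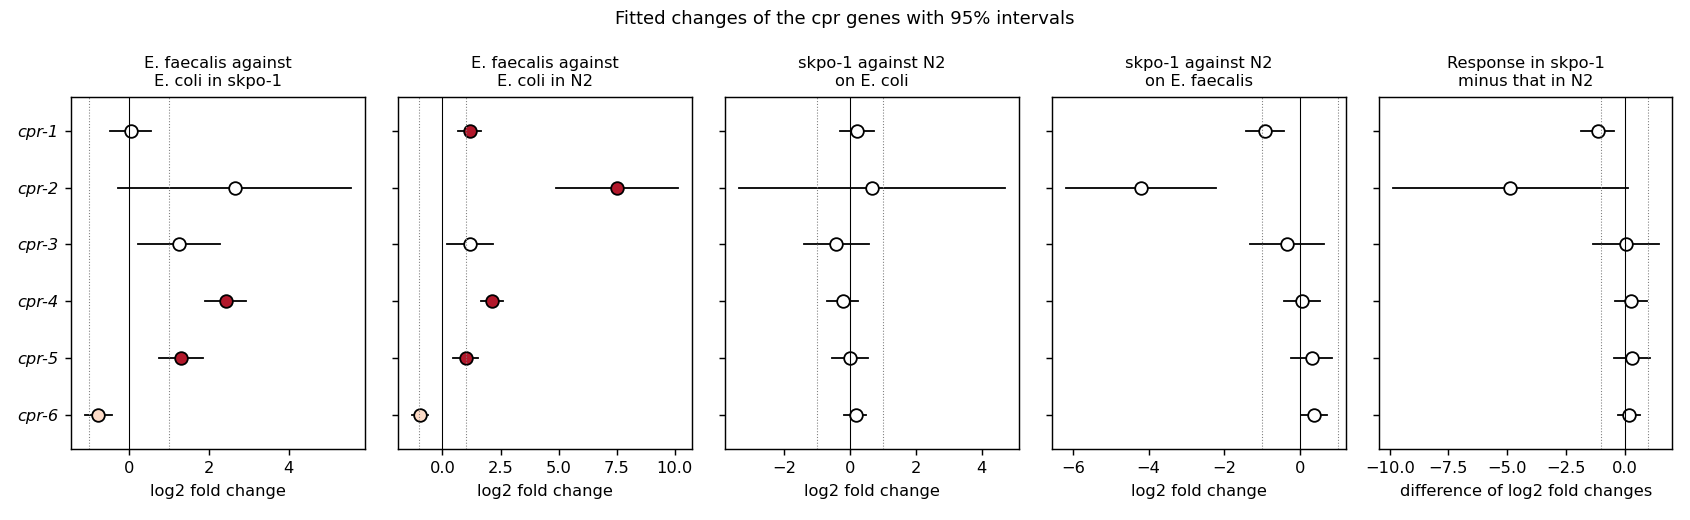
Fitted log2 fold changes of the 6 genes (points) with 95% intervals (lines) in the 5 comparisons, each on its own axis. Filled red points passed both thresholds, pale points passed the adjusted p threshold only, white points neither, and dotted lines stand at -1 and 1. Red points are found in the responses to *E. faecalis* only, 2 in *skpo-1* and 4 in N2.

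The summed level of gut markers was higher on *E. faecalis* in both genotypes, but its members did not all move one way. The sum of 7 intestine markers was 1593 to 1932 CPM in *skpo-1* on *E. faecalis* and 995.7 to 1206 CPM in *skpo-1* on *E. coli*. It was 1440 to 1688 CPM in N2 on *E. faecalis* and 725.5 to 1213 CPM in N2 on *E. coli*, and none of the 7 was at 0. In *skpo-1* 1 of the 7 was called higher (*vha-6*, a gut proton pump subunit, 1.37), beside 10% of all tested genes. In N2 2 were (*ifb-2*, a gut intermediate filament, 1.37, and *vha-6*, 1.05), beside 19.2% of all tested genes. The log2FC was above 0 for 6 of the 7 in each genotype. *ifb-2* in *skpo-1* (0.99, adjusted p = 0.008) passed the adjusted p threshold only. So did *ges-1* (0.60, adjusted p = 0.0155 in *skpo-1*, and 0.47, adjusted p = 0.0235 in N2, edgeR's quasi-likelihood test). *elt-7* had 0.52 in *skpo-1* and 0.33 in N2, which did not pass the test. *act-5*, a gut actin gene, had the highest mean of the 7 in each group. Its means were 673.0 CPM in *skpo-1* on *E. faecalis* and 575.5 CPM in *skpo-1* on *E. coli*. In N2 they were 594.5 CPM on *E. faecalis* and 517.8 CPM on *E. coli*. *vha-6* came next, with 652.6 ± 51.5 CPM in *skpo-1* on *E. faecalis* and 252.5 ± 29.9 CPM in *skpo-1* on *E. coli*. In N2 it had 528.4 ± 91.6 CPM on *E. faecalis* and 255.0 ± 61.3 CPM on *E. coli* (SD, n = 4, 3, 3 and 4). *pept-1*, a gut peptide transporter gene, went the other way, with a log2FC of -0.53 in *skpo-1* (adjusted p = 0.045) and -0.60 in N2 (adjusted p = 0.0172, edgeR's quasi-likelihood test). *act-5* had 0.23 in *skpo-1* and 0.20 in N2, which did not pass the test. The median log2FC of the 7 was 0.52 in *skpo-1* and 0.47 in N2. The log2FC of *elt-2*, the gut GATA factor, was 0.51 in *skpo-1* (adjusted p = 0.0602) and 0.57 in N2 (adjusted p = 0.0233, edgeR's quasi-likelihood test). In whole animals more gut relative to other tissue and more RNA per gut cell cannot be told apart, and the part of the gut share in the *cpr* values was not tested. Of the 10 yolk and oocyte genes, 3 were called lower on *E. faecalis* in each genotype (*vit-1*, *vit-3* and *vit-4*, which encode vitellogenins) and the other 7 were not called, with median log2FC of -0.76 in *skpo-1* and -0.64 in N2. Of all tested genes, 1.76% were called lower in *skpo-1* and 4.1% in N2. The body wall muscle markers summed to 374.4 to 1501 CPM in *skpo-1* on *E. faecalis* and 2340 to 3230 CPM in *skpo-1* on *E. coli*, and to 1321 to 1710 CPM in N2 on *E. faecalis* and 517.9 to 2859 CPM in N2 on *E. coli*, with neither of the 2 genes called in either genotype. None of the 3 hypodermis markers was called in either genotype, and 1 of the 2 pharyngeal muscle markers was called higher in N2 and none in *skpo-1*. The part of these markers in the result was not tested either.

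Of the other papain-family proteases, 14 had a row and 12 were tested. In *skpo-1* 3 were called higher and none lower, and in N2 4 were called higher and none lower, with median log2FC of 0.71 and 0.79. Of all tested genes, 10% were called higher in *skpo-1* and 19.2% in N2. *cpr-8*, the neighbour of *cpr-5*, had 69.0, 68.1, 65.04 and 50.03 CPM in *skpo-1* on *E. faecalis*, against 10.2, 8.54 and 11.4 CPM in *skpo-1* on *E. coli*. It had 62.4, 40.9 and 27.1 CPM in N2 on *E. faecalis*, against 13.8, 25.6, 17.1 and 15.3 CPM in N2 on *E. coli*. Both pairs of groups were apart, by a wide gap in *skpo-1* and a narrow one in N2. Its log2FC was 2.65 ± 0.289 in *skpo-1* (adjusted p = 4.67e-05) and 1.27 ± 0.26 in N2 (adjusted p = 0.00267), and the difference of 1.38 did not pass the test (adjusted p = 0.44, edgeR's quasi-likelihood test). W07B8.4, on the other side of *cpr-5*, was called at 2.41 in *skpo-1* (adjusted p = 0.0436) and 2.56 in N2 (adjusted p = 0.00893) from 1 to 211 counts a library, and its N2 groups overlapped. On *E. coli* W07B8.4 had 1 to 33 counts a library. A lower call was thus hardly open to it, and its direction carries little weight beside the shares of all tested genes. F32H5.1 was called in both genotypes (1.96 in *skpo-1*, 1.06 in N2), and *cpz-2*, a cathepsin Z-like gene, in N2 (1.40, adjusted p = 0.000612).

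Of the cystatins, which inhibit these proteases, *cpi-1* and *cpi-2* were tested and not called, and *cpi-3* was not found by symbol. The log2FC of *cpi-1* was 0.25 in *skpo-1* (adjusted p = 0.675) and -0.81 in N2 (adjusted p = 0.123), and that of *cpi-2* was 0.37 in *skpo-1* and -0.09 in N2. In N2 on *E. coli* the library that stood apart, replicate 2, had 171.9 CPM of *cpi-1* where the other 3 had 39.9 to 51.6 CPM. The range of *cpi-1* in N2 on *E. faecalis* was 36.3 to 49.6 CPM. The same library, replicate 2 of N2 on *E. coli*, had 215.8 CPM of *cpi-2* where the other 3 had 96.99 to 100.1 CPM, beside 116.0 to 124.1 CPM in N2 on *E. faecalis*. The N2 values of *cpi-1* and *cpi-2* thus both depended on that library. Of the 6 cathepsin D-like aspartic proteases, 1 was called higher in *skpo-1* (*asp-5*, 1.06, adjusted p = 0.00835) and none in N2, with medians of 0.25 and 0.07. Among all tested genes 10% were called higher and 1.76% lower in *skpo-1*, and 19.2% higher and 4.1% lower in N2. Of 14 other lysosomal hydrolases, 7 were called higher and 1 lower in *skpo-1*, and 6 higher and none lower in N2, with medians of 1.01 and 0.72. The 3 with the smallest adjusted p in both genotypes were the lipase genes *lipl-1* (log2FC 3.88 in *skpo-1*, 4.36 in N2) and *lipl-2* (3.53 in *skpo-1*, 4.36 in N2) and *asah-1*, an acid ceramidase gene (2.27 in *skpo-1*, 2.21 in N2). A further lipase gene, *lipl-3*, had a log2FC of -0.69 in *skpo-1* (adjusted p = 0.489) and was called in N2 at 3.08 with overlapping libraries (adjusted p = 0.00326), and the difference of -3.77 did not pass the test (adjusted p = 0.44, edgeR's quasi-likelihood test).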

How the data were processed

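RNA from 14 whole-animal samples was extracted with Trizol and sequenced by the study. Per the labels and methods, the authors trimmed reads with Trimmomatic (0.36), quantified transcripts with Salmon (1.2.1) on WBcel235 and summarised them per gene for DESeq2 (1.26.0). The deposited table holds estimated counts rounded to whole numbers, and 0 of its values were not whole. A second table deposited by the authors holds normalised counts (a signal scaled between libraries, used only in one alternative on a log2(value + 1) scale).

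Groups were taken from the labels. Counts were tested in R 4.3.3 with edgeR 4.0.16 (quasi-likelihood test) on all 14 libraries, 1 coefficient per group, after filterByExpr (minimum count 10, minimum total 15) and TMM scaling, and p-values were adjusted over 15685 genes by Benjamini-Hochberg. Alternatives used DESeq2 1.42.0, limma 3.58.1, median-of-ratios scaling, no filter, only the compared groups, a replicate block, no fold threshold and leaving out each library. Leaving out both libraries that stood apart was added after the data were seen. The fit was tested on simulated data with the same spread for every gene and no library set apart. That test therefore does not show how the fit behaves for genes that vary between replicates as *cpr-2* does. Counting error limits genes such as *cpr-2*, with few counts per library, most.

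The labels call the samples biological replicates. The 6 genes and all lists were chosen with earlier results of these data known, so counts over them are descriptions. All 6 genes were reported whatever their change. List genes were named where called, at most the 3 smallest adjusted p values per list and comparison, or all in lists of 4 or fewer. W07B8.4 in N2, *lipl-3*, *pept-1*, *act-5*, *ges-1*, *elt-7*, *ifb-2* in *skpo-1* and the ratio of *cpr-4* to *cpr-6* were chosen after their values were seen. Gene positions and exonic lengths came from Ensembl release 115.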

Additional observations from a re-analysis of the deposited data

How the results depend on the processing

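Leaving out each library in turn gave 2 to 4 called *cpr* genes in the *skpo-1* response, 3 to 5 in the N2 response, 0 between genotypes on *E. coli*, 0 to 1 on *E. faecalis* and 0 for the difference of the responses. The highest counts of 4 in the *skpo-1* response and 1 on *E. faecalis* both arose without replicate 1 of N2 on *E. faecalis*, the library in which *cpr-2* and *cpr-3* were at their level on *E. coli*; the cause was not tested. With that library left out, *cpr-2* (2.63, adjusted p = 0.0239) and *cpr-3* (1.24, adjusted p = 0.0176) were also called in *skpo-1*. No called value changed sign. Without both libraries that stood apart the counts were 2 in *skpo-1* and 5 in N2, and *cpr-5* in N2 fell under the fold threshold (0.83, adjusted p = 0.00613). When only the compared groups were fitted, *cpr-2* did not pass the filter in 3 of the comparisons and has no value there. Replicate numbers recur in the groups, but same-numbered libraries did not deviate together (r between -0.527 and 0.245 over 19 pairs), so they were not treated as pairs; with the replicate block 3 of the 6 genes were called in *skpo-1*, 3 in N2 and 0 between the genotypes. Over all genes, the number called ran from 774 to 3127 in *skpo-1* (1849 as reported), from 2453 to 5982 in N2 (3651), from 19 to 316 between genotypes on *E. coli* (101), from 10 to 157 on *E. faecalis* (17) and from 0 to 63 for the difference of the responses (0). Groups of 3 or 4 libraries leave wide intervals, and at the depth of *cpr-2* on *E. coli* (0 to 3 counts a library) a lower level was not detectable.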

Other observations

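The genes whose levels ran most like each *cpr* gene over the 14 libraries were named by the highest Pearson r of log2 CPM. These are descriptions over libraries that share group and scaling. *cpr-4* was closest to Y54G11A.7 (r = 0.99) and *hmit-1.1* (r = 0.982), a proton and myo-inositol transporter gene, whose log2FC on *E. faecalis* was 6.25 in *skpo-1* and 6.17 in N2. *cpr-5* was closest to *alh-11* (r = 0.982), an aldehyde dehydrogenase gene, and *clec-205* (r = 0.971), a C-type lectin gene. *cpr-6* was closest to T09B9.1 (r = 0.968) and *ent-5* (r = 0.962), a nucleoside transporter gene, with log2FC of -1.0 and -0.97 in *skpo-1* and -1.25 and -1.27 in N2. *cpr-1* was closest to *nmtn-1* (r = 0.906) and F55B11.5 (r = 0.891), and *cpr-3* to F35E12.9 (r = 0.942) and *tsp-2* (r = 0.925).

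*cpr-2* was closest to C01C4.3 (r = 0.949) and *pals-37* (r = 0.947). *pals-37* had 0.618, 4.94 and 11.5 CPM in replicates 1, 2 and 3 of N2 on *E. faecalis*, against 0.123 to 0.393 CPM in N2 on *E. coli*, the same order of libraries as *cpr-2*. The summed sperm markers *msp-3* and *spe-9* were 4.90 to 14.4 CPM in N2 on *E. faecalis* and 1.84 to 3.90 CPM in N2 on *E. coli*. Replicates 1 and 2 of N2 on *E. faecalis* had similar sums, 4.90 and 5.64 CPM. In *skpo-1* these markers summed to 2.89 to 7.43 CPM on *E. faecalis* and 2.90 to 8.95 CPM on *E. coli*, overlapping N2 on *E. faecalis*. The part of these markers in the *cpr-2* values was not tested.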
